A study of Mus musculus with 15 samples.

Results

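The comparison described here is skeletal muscle of mice labelled PdgfrB D489V against muscle of wild-type control mice. Each group had 5 male mice aged 2 months, and 5 further males labelled PdgfrB Knock Out completed the 15 libraries of the study. The series describes the mutant groups as a constitutively active receptor and as a loss of the receptor, both specific to cells that use myogenin, the transcription factor of differentiating muscle cells. The labels give no muscle, strain, litter or batch, do not say how many copies of the D489V allele a mouse carried or how it was switched on, and do not say whether the controls carry a Cre transgene. The allele is written as the labels give it, and its residue number was not checked against a protein sequence here. Poly(A) RNA was sequenced with a directional library kit. The values are the authors' normalized counts per gene, rounded to whole numbers. A gene entered the analysis if its value reached 10 in 5 or more of the 10 libraries compared, which kept 15339 of 55536 genes.

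Pdgfrb encodes platelet-derived growth factor (PDGF) receptor beta, a receptor tyrosine kinase that pairs up when PDGF-B or PDGF-D binds it and then passes a signal to the RAS-ERK, PI3 kinase-AKT, phospholipase C gamma and STAT pathways. In tissues it is best known from pericytes, vascular smooth muscle and fibroblasts, where PDGF-B released by endothelial cells recruits and maintains the cells that wrap small vessels. Myogenin comes on when satellite cells, the stem cells of muscle, leave the cell cycle to fuse into fibres. A mutation that keeps the kinase active signals without ligand, and immediate early genes such as Fos and Egr1 are textbook first responders to such signals.

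The normalized counts of a library summed to between 29815559 and 34433891 over all genes, and Spearman's rho between any pair of the 10 libraries lay between 0.953 and 0.993. Genes of the muscle fibre dominated every library. The 10 general fibre markers, from Acta1 to Ttn, summed to 2108724 to 2881612 in controls and 2441604 to 2765365 in D489V muscle. Between 21014 and 22279 genes had a value above 0 in controls and between 22216 and 23060 in D489V muscle. Of the whole numbers from 1 to 100, between 2 and 14 never occurred in a control column and 0 were missing in each D489V column, the pattern left when shallow libraries are scaled up, so depth before scaling was lower in controls. Its part in the results was not tested. D489V replicate 3 stood apart in 2 cell type lists. Its slow fibre markers summed to 243877 against 51896 to 76875 in the other D489V libraries, and its Schwann cell markers to 53206 against 13501 to 16439. In control replicate 5, lymphocyte markers summed to 13031 against 1180 to 4257 in the other controls.

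Pdgfrb RNA itself was lower in D489V muscle. Its normalized counts were 1848, 1673, 1720, 1716 and 1811 in the 5 controls and 820, 828, 1062, 849 and 970 in the 5 D489V libraries. The groups did not overlap, and the highest D489V library stayed well under the lowest control. The mean was 906 ± 106 (SD, n = 5) in D489V muscle against 1754 ± 72.9 (SD, n = 5) in controls, a ratio of 0.517. Pdgfrb fell by 0.96 on the log2(value + 1) scale (SE 0.0897, limma, adjusted p = 0.00168). The exact two-sided permutation test of 5 against 5 libraries gave p = 0.00794, the smallest it can give. The table counts reads of the gene as a whole, so transcripts of mutant and normal alleles are not separated. In bulk muscle, fewer cells that express a gene and less of its RNA in each cell cannot be told apart. The pericyte markers as a list summed to 21699 to 25206 in controls and 21562 to 26325 in D489V muscle, with 0 of 13 called and 1, the proteoglycan gene Cspg4, above the control range in every D489V library (598 to 770 against 773 to 930, log2 change 0.28, adjusted p = 0.354). Vascular smooth muscle markers summed to 30269 to 40028 and 29467 to 37883, and markers of fibro-adipogenic progenitors, the fibroblast-like cells of muscle, to 42782 to 51703 and 45418 to 55394.

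Pdgfrb lies on chromosome 18 at 61045150 to 61085061 (GRCm38, plus strand). Within 5 Mb on either side, 71 other genes were tested and 0 were called, with 3 higher and 5 lower at an unadjusted p under 0.05 (11.3%, against 9.43% of all genes tested). The next gene downstream, Csf1r, which encodes the related receptor of macrophages, had 322, 289, 428, 373 and 624 in controls and 277, 258, 312, 491 and 360 in D489V muscle, a log2 change of -0.25 (adjusted p = 0.768). On the other side, the sulfatase gene Arsi gave 183 to 262 in controls and 119 to 191 in D489V muscle (log2 change -0.55, adjusted p = 0.262). These ranges overlapped for both genes, and Arsi is not given as the nearest gene on its side.

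The other members of the PDGF family did not pass the test. Pdgfb, the ligand gene of endothelial cells, read 1537, 1642, 1552, 1613 and 1635 in controls and 1372, 1576, 1375, 1259 and 1194 in D489V muscle (log2 change -0.24, adjusted p = 0.386). Pdgfra, the receptor of fibro-adipogenic progenitors, read 681, 661, 697, 578 and 601 in controls and 781, 674, 870, 716 and 819 in D489V muscle (log2 change 0.26, adjusted p = 0.414). Both pairs of groups overlapped by 1 or 2 libraries on a side. The ligand genes Pdgfa and Pdgfd stayed within 0.05 of no change on the log2 scale, with adjusted p-values of 0.953 and 0.986, and Pdgfrl, a receptor-like gene without a kinase, gave -0.01 (adjusted p = 0.991). Pdgfc, whose ligand acts on receptor alpha, gave 34 to 53 in controls and 41 to 76 in D489V muscle (log2 change 0.34, adjusted p = 0.632). Among 28 genes that relay the signal, from the adaptor Grb2 and the phosphatase Ptpn11 to RAS, RAF, MEK, ERK, AKT and STAT genes, 0 were called and 0 had an unadjusted p under 0.05, with a median log2 change of -0.06 and a range from -0.35 to 0.35.

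Across the transcriptome, 9 of 15339 genes passed the test (limma, Benjamini-Hochberg adjusted p under 0.05), a share of 0.0587%, of which 4 were higher (0.0261%) and 5 lower (0.0326%) in D489V muscle. The genes that rose were Apold1, Ankrd1, the pseudogene Gm13453 and the long noncoding RNA Gm48584. Those that fell were Pdgfrb, the cell cycle genes Ccna2, Ckap2 and Mki67, and Gadd45gip1. At an unadjusted p under 0.05 there were 824 higher genes (5.37%) and 623 lower ones (4.06%), 1447 in all against 767 that chance alone would give. In 331 genes (2.16%) the 5 control and 5 D489V values did not overlap, with 168 higher (1.1%) and 163 lower (1.06%). A further 66 genes had adjusted p-values between 0.05 and 0.1, the lowest at 0.0506, so small shifts in the fit move many genes across the line. Leaving out control replicate 2 or 4, or D489V replicate 2 or 5, left 2 calls, and leaving out D489V replicate 3 gave 28. Pdgfrb and Gm13453 stayed past the threshold in each of 20 alternative fits, and Apold1 in 15.

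**Figure D1:**
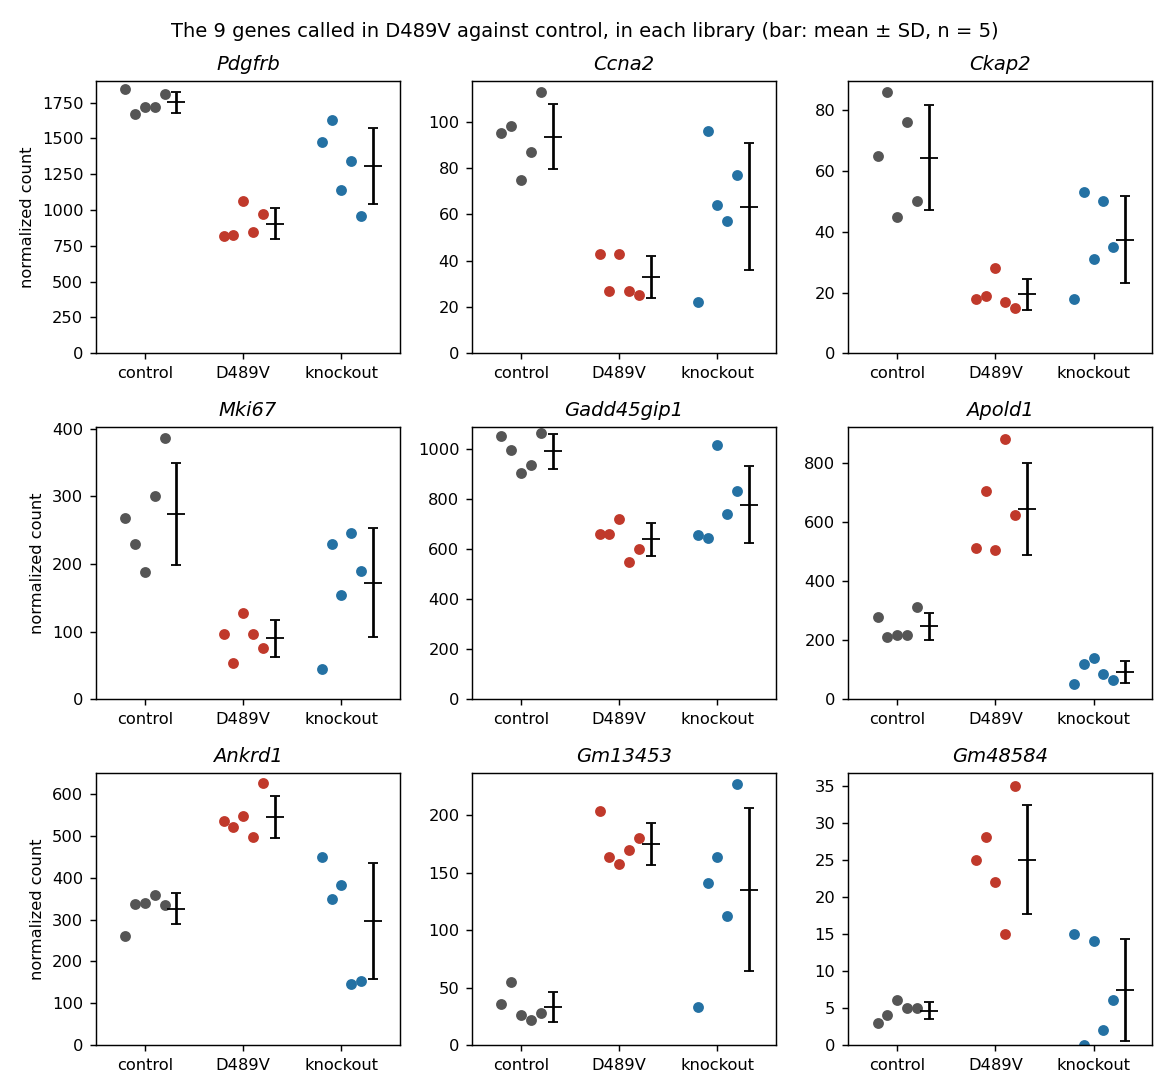
Normalized counts of the 9 called genes (vertical axes, each from 0) in the 5 control, 5 D489V and 5 knockout libraries; points are libraries in the order of their replicate numbers, and bars are the mean ± SD. Control and D489V points do not overlap in any of the 9 panels, while knockout points lie below both groups for Apold1 and spread over both for Mki67.

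Most of the tested genes of cell division had lower values in D489V muscle. Of 49 tested cell cycle genes, 46 had log2 changes below 0 and 3 above it, where 50.4% of all genes tested were above 0. Their median was -1.06, against 0.00 over all genes. Ccna2 and Mki67 of this list fell, and Ckap2, which was not on the list, fell with them. At an unadjusted p under 0.05, 35 of the 49 (71.4%) were lower and 0 higher, against 4.06% of all genes, and 19 of the 49 were below the control range in every D489V library, against 1.06% of all genes. The count of 35 was 34 without control replicate 5, 34 without D489V replicate 3 and between 32 and 36 with any single library left out. With the filter at a mean of 50 or more, which kept 26 of the 49 genes, it was 14. Summed over the 50 genes of the list, the groups overlapped, with normalized counts of 6273 to 9719 in controls and 5038 to 8360 in D489V muscle. D489V replicate 3, at 8360, lay above the control median of 8034.

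Ccna2 encodes cyclin A2, which drives DNA synthesis and entry into mitosis. Its normalized counts were 95, 98, 75, 87 and 113 in controls and 43, 27, 43, 27 and 25 in D489V muscle. Cyclin A2 RNA was thus clearly separated between groups, with means of 93.6 ± 14 and 33 ± 9.17 (SD, n = 5 each) and a log2 change of -1.50 (SE 0.206, adjusted p = 0.0408). Ccna2 overlaps the end of Exosc9 on the other strand, and Exosc9 gave 597 to 772 in controls and 526 to 666 in D489V muscle (log2 change -0.27, adjusted p = 0.429).

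Mki67, the gene of the proliferation antigen Ki-67 that coats mitotic chromosomes, gave 268, 229, 188, 300 and 386 in controls. In D489V muscle it gave 97, 53, 128, 96 and 76, all below the lowest control. Mki67 thereby fell by 1.61 (SE 0.244, adjusted p = 0.0485). Ckap2, whose product binds spindle microtubules, read 65, 86, 45, 76 and 50 in controls and 18, 19, 28, 17 and 15 in D489V muscle, and fell by 1.67 (SE 0.241, adjusted p = 0.0408). The calls of all 3 genes were lost when control replicates 1, 2, 4 or 5 or D489V replicates 2, 4 or 5 were left out, with adjusted p-values up to 0.131, while their log2 changes kept between -1.81 and -1.40.

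Further members of the list sat just past the threshold. Kif23, a kinesin of the midbody, read 72, 77, 66, 76 and 96 in controls against 36, 19, 40, 28 and 31 in D489V muscle (log2 change -1.33, adjusted p = 0.0506). Top2a, the topoisomerase that untangles replicated DNA, read 119, 117, 139, 223 and 317 against 44, 19, 78, 53 and 51 (log2 change -1.89, adjusted p = 0.0845). Prc1, a bundler of the central spindle, read 59 to 123 against 19 to 53 (log2 change -1.51, adjusted p = 0.0841). None of these ranges overlapped, and the same held for Ect2, an activator of cytokinesis (log2 change -1.68, adjusted p = 0.0527), Cdk1, the kinase of mitotic entry (-1.41, adjusted p = 0.0572), and the kinesin gene Kif20a (-1.12, adjusted p = 0.254). D489V replicate 2 was the lowest library for Mki67, Top2a, Kif23, Prc1, Ect2 and Kif20a, and D489V replicate 3 the highest D489V library for Mki67, Top2a, Kif23, Prc1 and Ect2.

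The list was not uniform. Pcna, the DNA polymerase clamp that is also used in DNA repair, gave 593 to 712 in controls and 550 to 658 in D489V muscle (log2 change -0.09, adjusted p = 0.803). Mcm2, a subunit of the replicative helicase, gave 133 to 401 and 107 to 165 (log2 change -0.80, adjusted p = 0.397). Pttg1, the securin gene, spread from 538 to 1294 in controls and from 564 to 1210 in D489V muscle (log2 change 0.23, adjusted p = 0.846). The mitotic genes Aurka and Ube2c gave log2 changes of 0.05 and 0.03, while Mcm5, another helicase subunit, gave -1.23 (adjusted p = 0.236). Pttg1, Aurka and Ube2c were the 3 members above 0, and the other 46 of the 49 were below it. Members with little change thus occurred among both mitotic and replication genes.

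**Figure D2:**
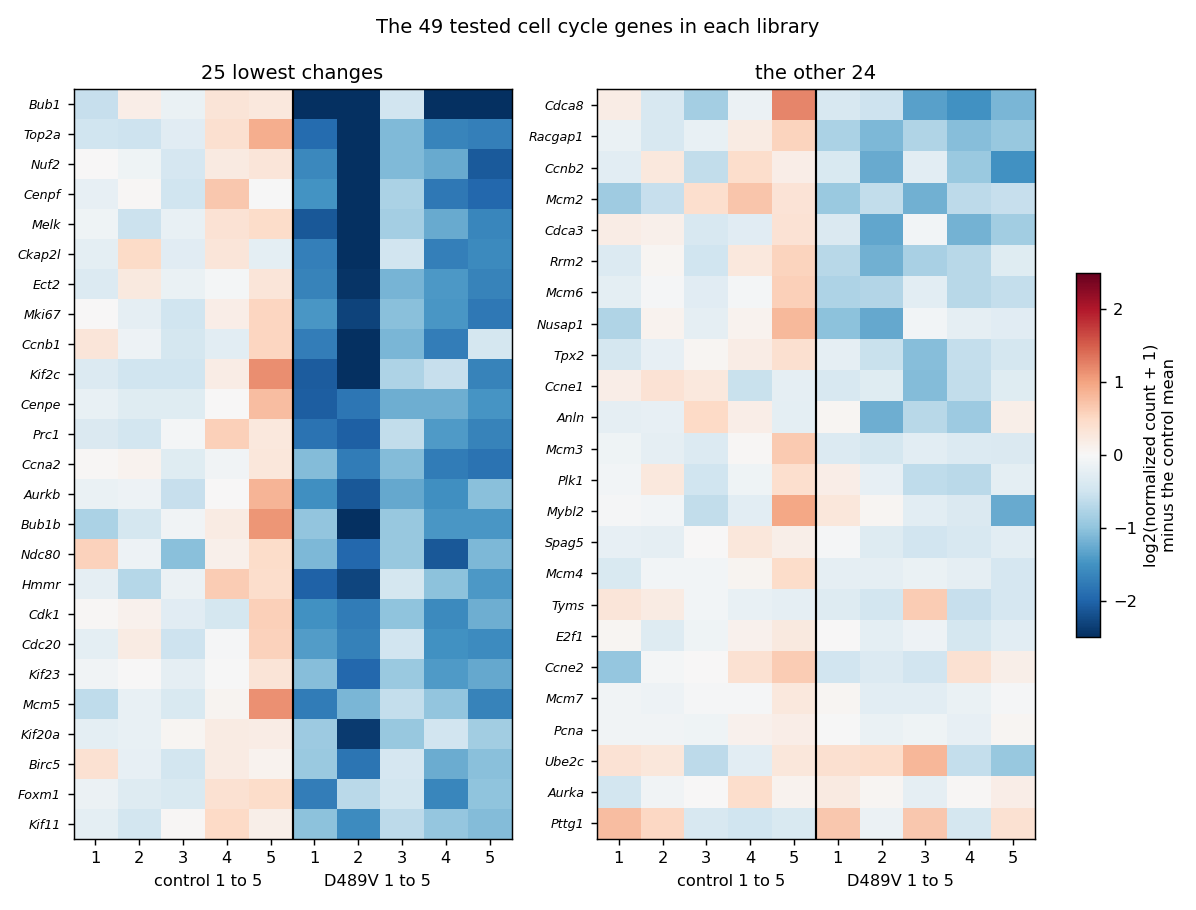
Difference from the control mean on the log2(normalized count + 1) scale for each of the 49 tested cell cycle genes (rows, ordered by change) in the 10 libraries (columns); colours saturate at 2.5 on either side. Most rows are blue in all 5 D489V libraries, deepest in D489V replicate 2, and the rows at the bottom of the right panel show no shift.

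Promoter sequences are given for Mki67 and Ckap2 because they are the called cell cycle genes with an entry in the RefSeq promoter table (GRCm38.p6). The 250 bases before each start are printed 5′ to 3′ on the gene's own strand. Capitals mark CCAAT boxes (CCAAT, or ATTGG on the other strand), the site of the factor NF-Y, and the TTTGAA core of the cell cycle genes homology region (TTCAAA on the other strand), known as a site of the complexes that silence cell cycle genes in resting cells. No matches of the 2 motifs overlap in either promoter. The Mki67 window is chr7:135716380-135716629 and the Ckap2 window chr8:22185820-22186069, both on the minus strand and outside annotated exons.
Mki67: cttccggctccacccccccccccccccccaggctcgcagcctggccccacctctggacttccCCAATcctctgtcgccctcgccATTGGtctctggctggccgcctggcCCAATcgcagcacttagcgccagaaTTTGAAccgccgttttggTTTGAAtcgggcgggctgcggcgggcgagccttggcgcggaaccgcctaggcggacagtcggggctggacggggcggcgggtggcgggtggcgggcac
Ckap2: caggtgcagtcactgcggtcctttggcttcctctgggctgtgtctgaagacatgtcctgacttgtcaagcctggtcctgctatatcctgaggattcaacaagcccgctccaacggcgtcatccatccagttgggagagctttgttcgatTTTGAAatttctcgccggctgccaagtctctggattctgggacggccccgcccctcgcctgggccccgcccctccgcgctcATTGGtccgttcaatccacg

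The core, on either strand, was also found in Top2a, Cdk1, Ect2, Kif11, Kif2c and Ckap2l, which lay below the control range in every D489V library. It was found too in genes whose groups overlapped, namely Ube2c, with a log2 change of 0.03, Mcm2, Ccnb2 and Cdc20. Ccnb2 gave 29 to 61 in controls and 15 to 37 in D489V muscle, and Cdc20 49 to 106 and 21 to 50. For Top2a, Cdk1 and Ect2, 30 bases around a match are shown with the core in capitals. They are chr11:99024351-99024380 for Top2a, chr10:69352966-69352995 for Cdk1 and chr3:27153975-27154004 for Ect2, all on the minus strand.
Top2a: ctattggtccatTTTGAAgattctcccgcc
Cdk1: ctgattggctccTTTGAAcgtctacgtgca
Ect2: ccgtttaccggaTTTGAAacacactcacaa

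Of the 43 cell cycle promoters in the table, 31 (72.1%) held a CCAAT box within 250 bases and 11 (25.6%) held TTTGAA, against 34.5% and 16.3% of 27025 promoters, 1 for each gene. CCAAT boxes were as frequent in the promoters of the erythroid list (8 of 11, 72.7%), where most log2 changes were above 0. A match is a stretch of letters and not a measured binding site.

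Genes of satellite cells and of muscle formation did not move as a group. Of 20 tested, 0 were called, and the median log2 change was -0.09. At an unadjusted p under 0.05, 1 was higher (5%) and 3 lower (15%), against 5.37% and 4.06% of all genes. Mymk, whose product myomaker fuses myoblasts, read 147, 117, 125, 179 and 86 in controls and 82, 36, 38, 43 and 63 in D489V muscle. Its groups did not overlap, by the narrow gap between 82 and 86 (log2 change -1.33, adjusted p = 0.0841). Myod1, the factor of committed myoblasts, gave a log2 change of -0.33 (adjusted p = 0.337), and Megf10, a receptor gene of satellite cells, -0.48 (adjusted p = 0.384). Myf5, the factor of satellite cells poised to divide, gave 41 to 52 in controls and 53 to 69 in D489V muscle (log2 change 0.40, adjusted p = 0.418). Myog, the myogenin gene, gave 455 to 677 in controls and 373 to 561 in D489V muscle (log2 change -0.23, adjusted p = 0.668).

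Genes that control muscle size and genes of the nerve contact gave 0 calls. Igf1, a growth factor gene of muscle, gave 992 to 1299 and 799 to 995 (log2 change -0.32, adjusted p = 0.353). Of 14 genes of growth control, 0 were called. At an unadjusted p under 0.05, 1 was higher (7.14%) and 4 lower (28.6%), against 5.37% and 4.06% of all genes. The 4 became 2 without control replicate 3 or 5 or D489V replicate 1 or 3. Among 13 genes of the neuromuscular junction 0 were called. The low gene there was Chrng, the fetal acetylcholine receptor subunit, with 16 to 34 in controls and 3 to 17 in D489V muscle (log2 change -1.46, adjusted p = 0.278).

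Apold1 was the protein-coding gene with the smallest adjusted p among those that rose. It encodes apolipoprotein L domain containing 1, an early response protein of endothelial cells. Normalized counts were 277, 209, 219, 216 and 313 in controls and 511, 705, 507, 882 and 624 in D489V muscle. Every D489V library exceeded every control, and the means stood at 646 ± 156 and 247 ± 45.9 (SD, n = 5 each), a ratio of 2.62 (log2 change 1.37, SE 0.172, adjusted p = 0.0243). The call was lost without control replicate 2 or 4 or D489V replicate 2 or 5 (adjusted p from 0.098 to 0.129). Markers of endothelial cells as a list summed to 25447 to 38357 in controls and 28677 to 35390 in D489V muscle, and 0 of 18 were called, with a median log2 change of 0.09. The endothelial gene with the smallest p was Vwf, von Willebrand factor, at 917 to 1491 and 1321 to 1758 (log2 change 0.46, adjusted p = 0.316).

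Immediate early genes, which cells switch on within minutes of a signal, were mostly higher in level, and 0 were called. All 26 tested had log2 changes above 0, against 50.4% of all genes, with a median of 0.50 and a range from 0.15 to 1.15. At an unadjusted p under 0.05, 16 of the 26 (61.5%) were higher and 0 lower, against 5.37% of all genes, and 4 did not overlap with controls. The count of 16 kept between 14 and 16 when any single library was left out. Summed over the 28 genes of the list, normalized counts were 24426 to 30669 in controls and 35017 to 43128 in D489V muscle, without overlap.

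Klf6, a zinc finger gene, read 1220, 1135, 1516, 1229 and 1278 in controls and 1905, 2041, 1948, 1848 and 1551 in D489V muscle (log2 change 0.54, adjusted p = 0.0724). Klf4, its relative in endothelium and smooth muscle, read 885, 732, 829, 834 and 724 against 1104, 1596, 1473, 1453 and 983 (log2 change 0.70, adjusted p = 0.0841). Dusp1, a phosphatase gene that shuts off MAP kinases, read 2859 to 3495 against 3860 to 5583 (log2 change 0.52, adjusted p = 0.0947). In all 3 genes the D489V libraries lay above the control range. Klf2, a gene that endothelial cells induce under flow, overlapped through control replicate 5 (593 to 1540 against 1337 to 2621, log2 change 1.07, adjusted p = 0.151).

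Controls themselves were split for the classical members. Fos, a subunit of the AP-1 transcription factor, read 1504, 2109, 683, 478 and 423 in controls and 1682, 1092, 2295, 1902 and 1581 in D489V muscle (log2 change 0.97, adjusted p = 0.492). Egr1, a direct target of ERK signalling, read 2489, 2840, 684, 430 and 691 against 1718, 991, 2085, 1338 and 1311 (log2 change 0.42, adjusted p = 0.821). Control replicates 1 and 2 were thus as high as D489V muscle in both, or higher, and control replicates 3 to 5 were low. Junb, another AP-1 gene, showed the same split in controls (1135 and 1245 against 543 to 641) but all D489V libraries were above it, at 1267 to 1661 (log2 change 0.89, adjusted p = 0.221). What set these controls apart was not tested.

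Feedback genes of the ERK pathway gave 0 calls among 18. Their median log2 change was 0.13, in a range from -0.74 to 0.89, against a median of 0.00 over all genes. The genes named below are those of the list with small p-values. At an unadjusted p under 0.05, 2 were higher (11.1%) and 1 lower (5.56%), against 5.37% and 4.06% of all genes. Errfi1, an inhibitor of ERBB receptors, read 902, 1025, 1599, 1218 and 1001 in controls and 1674, 1960, 2094, 2088 and 1982 in D489V muscle. Its D489V values were all above the highest control (log2 change 0.80, adjusted p = 0.0638). Lrig3, the gene of a transmembrane leucine-rich repeat protein, gave 116 to 138 and 152 to 186 (log2 change 0.35, adjusted p = 0.332). Ccnd1, the cyclin D1 gene that growth factors induce, was lower instead, at 637 to 1005 and 333 to 666 (log2 change -0.74, adjusted p = 0.21).

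Ankrd1 rose. It encodes a cardiac and skeletal muscle stress protein of the sarcomere and is a standard target of the transcriptional coactivator YAP. Normalized counts were 262, 338, 341, 358 and 334 in controls and 537, 521, 547, 497 and 628 in D489V muscle, with a wide gap between 358 and 497. The means were 327 ± 37.3 and 546 ± 49.6 (SD, n = 5 each; log2 change 0.74, SE 0.108, adjusted p = 0.0408). The call was lost with any single library left out except D489V replicate 3, with adjusted p-values up to 0.129, while the log2 change stayed between 0.67 and 0.78 in all 20 alternative fits.

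Other YAP targets divided. Amotl2, an angiomotin family gene, read 1068, 931, 1190, 942 and 909 in controls and 1426, 1511, 1371, 1489 and 1446 in D489V muscle (log2 change 0.53, adjusted p = 0.0549). Ccn1, a secreted matrix protein gene that is also an immediate early gene, read 1731, 1949, 1027, 919 and 1072 against 2304, 2397, 3130, 2475 and 2302 (log2 change 0.97, adjusted p = 0.0976). Neither gene overlapped between groups. Ccn2, the connective tissue growth factor gene, did overlap, with 596 to 1386 and 877 to 1842 (log2 change 0.68, adjusted p = 0.418). The other 11 of the 15 tested targets had unadjusted p-values over 0.05, and the list as a whole had a median log2 change of 0.04.

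The promoters of Ankrd1, Amotl2 and Ccn1 each held CATTCC, the M-CAT motif bound by the TEAD factors through which YAP acts. On the other strand the motif reads GGAATG. They are shown because these 3 genes are the non-overlapping members of the list, as 30 bases on the gene's strand with the match in capitals. The windows are chr19:36120037-36120066 and chr19:36119950-36119979 for Ankrd1 (minus strand, within an Ankrd1 exon that GENCODE annotates before the RefSeq start), chr9:102717727-102717756 for Amotl2 (plus strand) and chr3:145650071-145650100 for Ccn1 (minus strand). The Amotl2 window precedes the RefSeq start used but lies after the start of the gene in GENCODE, at 102716672.
Ankrd1, first site: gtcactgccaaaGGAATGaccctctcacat
Ankrd1, second site: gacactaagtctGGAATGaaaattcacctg
Amotl2: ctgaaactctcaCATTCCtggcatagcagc
Ccn1: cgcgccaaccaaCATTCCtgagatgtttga

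CATTCC occurred in 7 of the 13 YAP target promoters of the table (53.8%) and in 12.6% of all promoters. It also occurred in list members that did not differ, such as Axl and Crim1. Of 23 immediate early promoters, 2 held CATTCC (8.7%) and 1 held a CArG box (4.35%), the site of serum response factor, against 1.41% of all promoters.

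**Figure D3:**
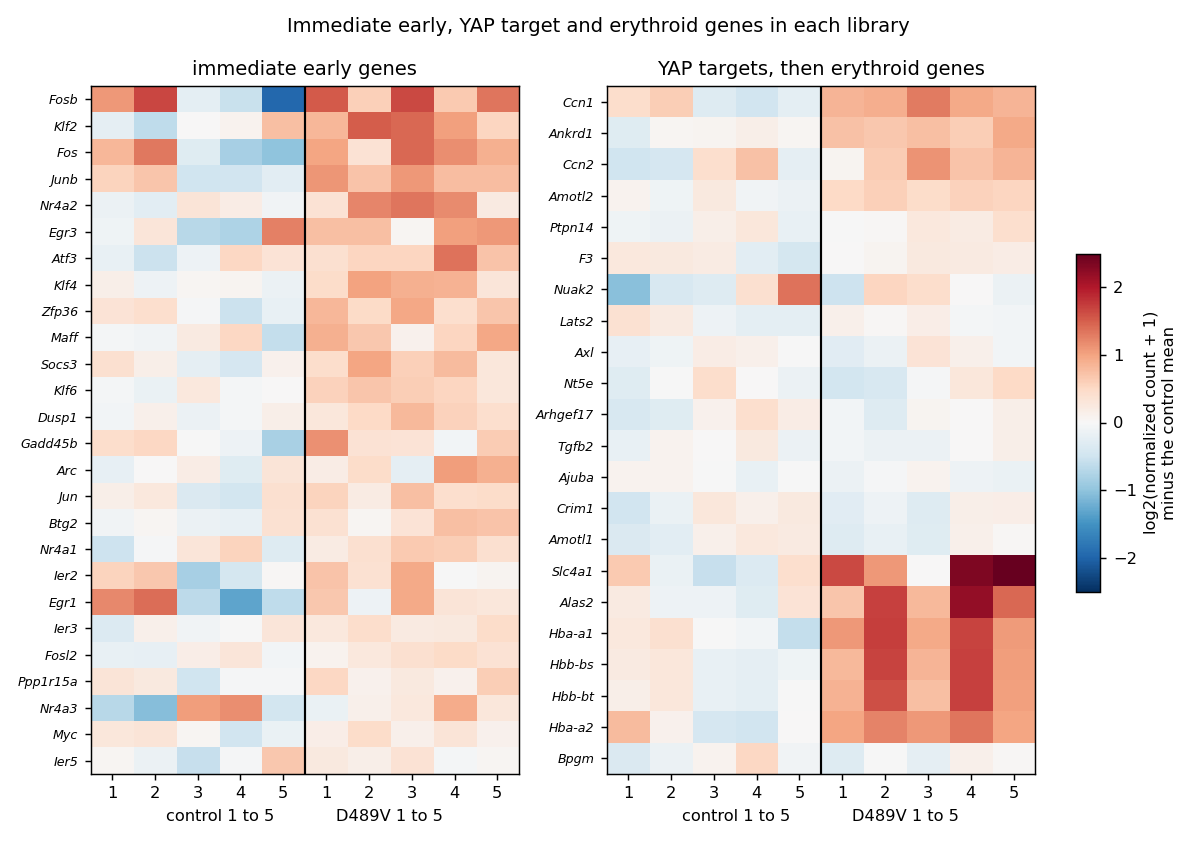
Difference from the control mean on the log2(normalized count + 1) scale for 26 immediate early genes (left), and for 15 YAP targets above 7 erythroid genes (right), in the 5 control and 5 D489V libraries (columns); colours saturate at 2.5. Control replicates 1 and 2 are as red as D489V libraries for Fos and Egr1, the 4 YAP targets at the top are red in nearly all D489V libraries, and erythroid rows other than Bpgm are red in D489V muscle.

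Transcripts of red blood cells and their precursors were higher in D489V muscle without a call. Hba-a1, an alpha globin gene, read 2918, 3217, 2416, 2325 and 1597 in controls and 5113, 8021, 4671, 7849 and 5088 in D489V muscle (log2 change 1.30, adjusted p = 0.0506). Hbb-bs and Hbb-bt, the adult beta globin genes, gave log2 changes of 1.22 and 1.19, each with an adjusted p of 0.0506. Alas2, the first enzyme of heme synthesis in red cell precursors, read 168, 132, 131, 116 and 181 against 232, 474, 253, 661 and 389 (log2 change 1.37, adjusted p = 0.0841). None of these groups overlapped, and D489V replicates 2 and 4 were the highest for each gene. Reads of paired globin genes are nearly identical, so the split between Hba-a1 and Hba-a2, or Hbb-bs and Hbb-bt, depends on how the authors counted them.

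Of 13 erythroid genes 7 could be tested, and 6 of these were higher at an unadjusted p under 0.05 (85.7%, against 5.37% of all genes). The summed list gave 8159 to 10803 in controls and 14720 to 25069 in D489V muscle. The exception was Bpgm, a glycolytic gene that muscle also expresses, with a log2 change of -0.08 (adjusted p = 0.904). Slc4a1, the anion exchanger of the red cell membrane, was low throughout, at 5 to 13 and 8 to 55 (log2 change 1.55, adjusted p = 0.321). The other 6 members were too low to test. Whether the amount of blood in the samples differed was not tested.

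Marker lists of the remaining cell types gave 0 calls. Adipocyte genes gave the highest median among them. All 13 adipocyte genes had log2 changes above 0 with a median of 1.22. At an unadjusted p under 0.05, 6 were higher (46.2%), against 5.37% of all genes. Adipoq, the adiponectin gene, read 2580, 1824, 2214, 179 and 351 in controls and 5106, 3414, 1294, 4177 and 4290 in D489V muscle (log2 change 1.85, adjusted p = 0.438). Cidec, a lipid droplet gene, was likewise low in the same 2 controls (134 to 1417 and 973 to 3464, log2 change 2.01, adjusted p = 0.332). Control replicates 4 and 5 held little fat RNA and D489V replicate 3 held the least of its group, so the groups overlapped. The count of 6 became 3 when control replicate 4 or 5 or D489V replicate 1 was left out, and 10 when control replicate 1 was left out.

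All 12 Schwann cell genes had log2 changes above 0 (median 0.44), and 2 had an unadjusted p under 0.05 (16.7%, against 5.37% of all genes higher). Their sum was 9741 to 15611 in controls, and D489V replicate 3 alone stood outside the control range by a wide margin. Lymphocyte genes had a median of -0.30 and macrophage genes of -0.06, with 0 of 12 and 1 of 16 (6.25%, higher) past an unadjusted p of 0.05. Fast fibre genes had a median of 0.04 and slow fibre genes of 0.29, and 0 of 24 in both lists together had an unadjusted p under 0.05.

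**Figure D4:**
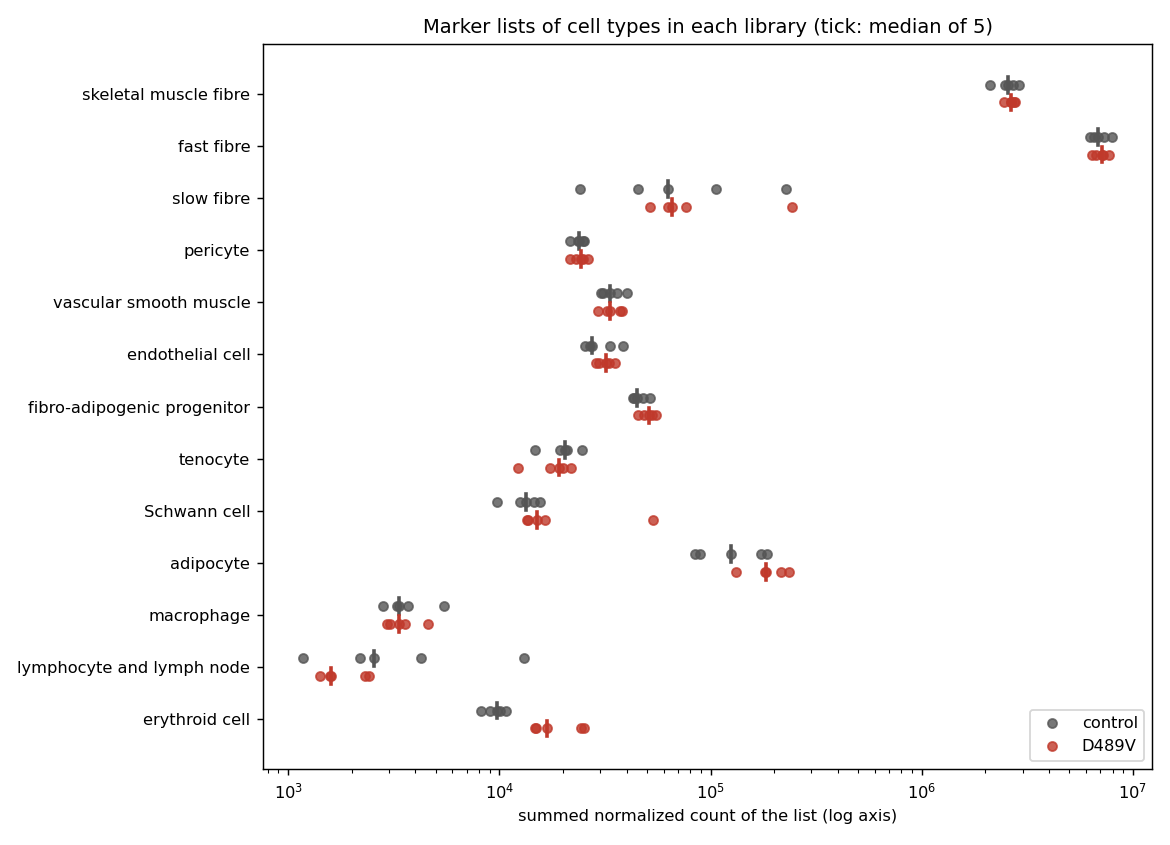
Summed normalized counts of each cell type's marker list (horizontal log axis) in the 5 control and 5 D489V libraries; points are libraries and ticks are group medians. The groups overlap in each list except the erythroid one, and single points stand apart for D489V replicate 3 (slow fibre, Schwann cell) and control replicate 5 (lymphocyte).

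Gadd45gip1 fell. Its product, also known as CRIF1 or MRPL59, sits at the exit of the mitochondrial ribosome and is needed to insert new respiratory chain subunits into the inner membrane. It read 1052, 997, 906, 935 and 1063 in controls and 661, 662, 721, 550 and 599 in D489V muscle. Both groups were tight and well apart, at 991 ± 69.5 and 639 ± 65.7 (SD, n = 5 each; log2 change -0.64, SE 0.0933, adjusted p = 0.0408). The call was lost with any single library left out except control replicate 3 or D489V replicate 3. The gene overlaps another gene on the opposite strand.

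The rest of the mitochondrial ribosome did not follow. Of 78 tested proteins, Gadd45gip1 was the single call, and the median log2 change was 0.02. At an unadjusted p under 0.05, 1 gene was higher (1.28%) and 2, Gadd45gip1 included, lower (2.56%). The shares of all genes were 5.37% and 4.06%. Among 26 subunits of the respiratory chain, 0 had an unadjusted p under 0.05 and log2 changes lay between -0.23 and 0.16. Glycolysis and glycogen genes had 1 of 18 higher at that level (5.56%). Fatty acid oxidation genes had 3 of 18 higher (16.7%), led by Cpt1b, the muscle gatekeeper of fatty acid entry into mitochondria. Cpt1b read 159, 152, 169, 165 and 176 in controls and 221, 246, 221, 227 and 225 in D489V muscle. The Cpt1b groups were narrow and did not overlap (log2 change 0.47, adjusted p = 0.0845).

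Extracellular matrix genes were lower in level without a call. Of 22 genes, 21 had log2 changes below 0 (median -0.27), and 7 had an unadjusted p under 0.05, all lower (31.8%, against 4.06% of all genes). Col1a1, a chain of fibrillar collagen I, gave 48335 to 72722 in controls and 26522 to 48932 in D489V muscle, with an overlap of 1 library a side (log2 change -0.61, adjusted p = 0.279). Col1a2, its partner chain, and Col3a1, of collagen III, gave -0.59 (adjusted p = 0.378) and -0.47 (adjusted p = 0.365). The count of 7 was 3 without control replicate 3 or D489V replicate 1 or 2, and 4 without control replicate 4. Tenocyte markers, whose cells also make collagen, had a median of -0.26, and their sums overlapped (14787 to 24737 and 12215 to 21774). Interferon-stimulated genes were below 0 in 18 of 20 (median -0.24), with 0 at an unadjusted p under 0.05.

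Some of the stress and hormone response genes had higher values. Of 16 atrophy and FoxO genes 6 were higher and 0 lower at an unadjusted p under 0.05 (37.5%). For this and the lists that follow, the share of all genes at that level was 5.37% higher and 4.06% lower. Cdkn1a, the p21 inhibitor of cyclin-dependent kinases, read 612, 660, 1364, 1021 and 693 in controls and 2881, 1455, 1564, 1551 and 3078 in D489V muscle. Every D489V library was above the highest control, 2 of them far above it (log2 change 1.26, adjusted p = 0.114). Eif4ebp1, a brake on translation, and Klf15, a glucocorticoid target, gave 0.55 (adjusted p = 0.193) and 0.64 (adjusted p = 0.254). The ubiquitin ligase genes Fbxo32 and Trim63, the usual readouts of atrophy, were on the list and were not called.

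Of 11 glucocorticoid response genes 6 were higher at the same level (54.5%). The summed list did not separate the groups, with medians of 38303 in controls and 39766 in D489V muscle. It gave 19256 and 21032 in control replicates 1 and 2, and 38303 to 49621 in control replicates 3 to 5. D489V libraries gave 28351 to 46864, below control replicates 3 and 4. Mt2, a metallothionein gene induced by metals and glucocorticoids, read 154, 74, 158, 137 and 81 in controls and 369, 254, 473, 256 and 279 in D489V muscle (log2 change 1.45, adjusted p = 0.0638). Its neighbour Mt1 read 268 to 475 against 542 to 1040 (log2 change 0.94, adjusted p = 0.162). Both metallothionein genes were separated between groups. Per1, a clock gene that glucocorticoids also induce, split the controls into 548 and 501 in replicates 1 and 2, 1180 in replicate 5 and 2738 and 2551 in replicates 3 and 4, against 2070 to 3338 in D489V muscle (log2 change 1.17, adjusted p = 0.43). The count of 6 was 3 without control replicate 2.

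Of 19 clock genes 4 were higher at an unadjusted p under 0.05, and 2 without control replicate 2. Chaperone genes had 4 higher and 1 lower of 18, with the inducible Hspa1a at 69 to 214 and 207 to 460 (log2 change 1.11, adjusted p = 0.235) and Dnajb1 at 267 to 377 and 363 to 503 (0.41, adjusted p = 0.283). Hspa1a has a near-identical copy, Hspa1b, so its share of the reads is uncertain. Notch pathway genes had 2 of 14 higher, led by the target gene Hey2 at 14 to 24 and 24 to 44 (log2 change 0.83, adjusted p = 0.267). Among 12 angiogenic ligands the low gene was Apln, the apelin gene of sprouting endothelium, with 285, 259, 268, 745 and 306 in controls and 113, 156, 253, 168 and 126 in D489V muscle. The Apln groups were separated by the small gap between 253 and 259 (log2 change -1.11, adjusted p = 0.236).

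**Figure D5:**
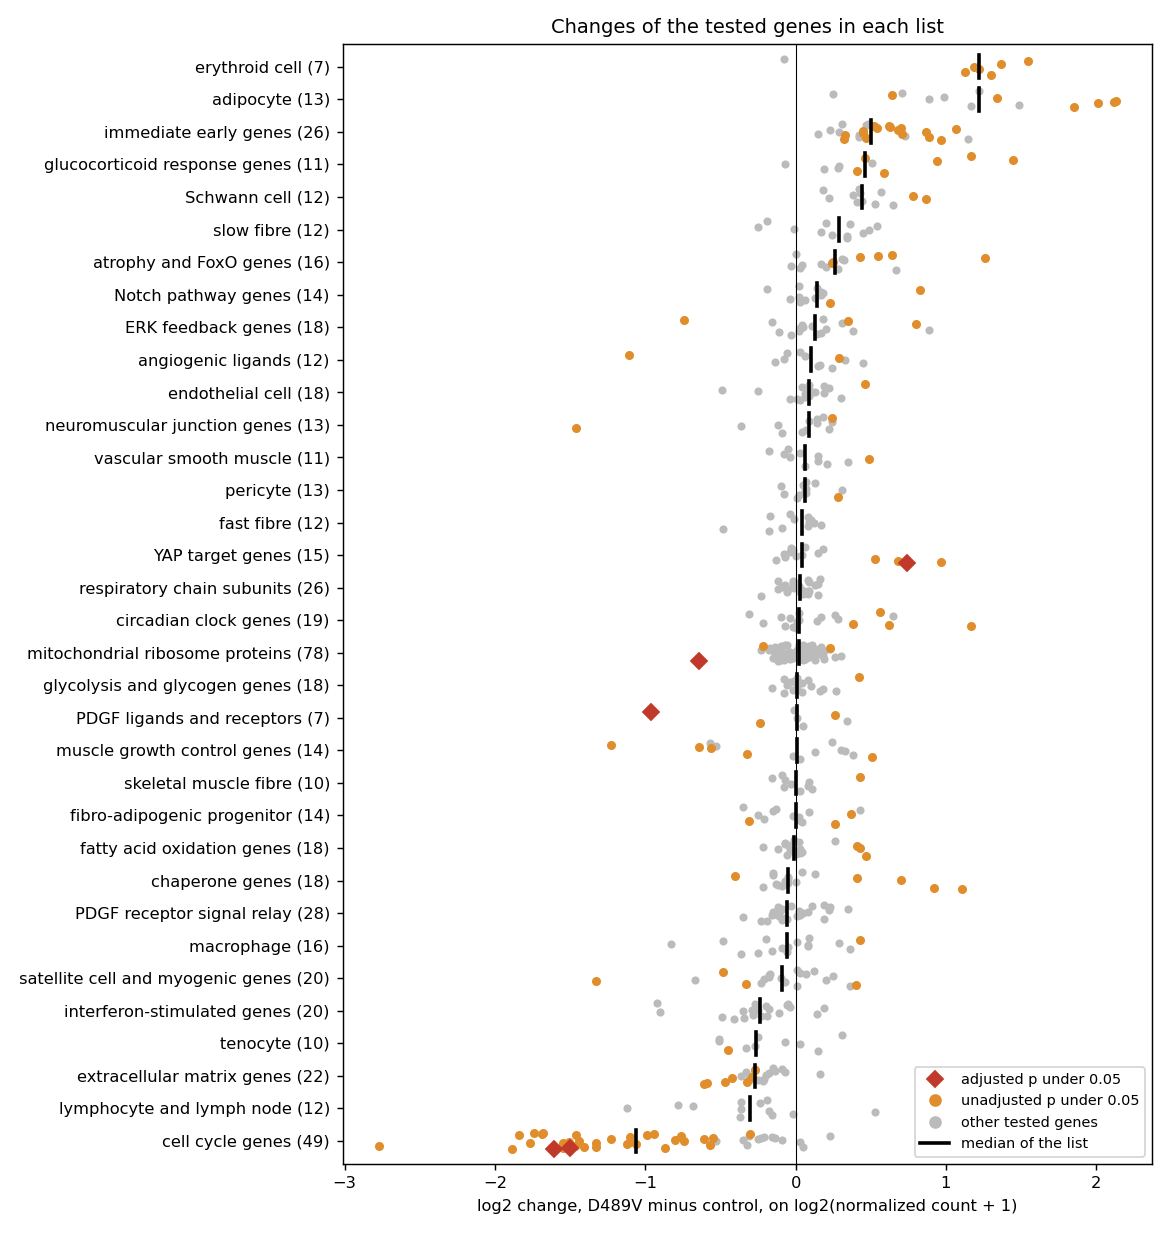
Log2 change of each tested gene, D489V minus control (horizontal axis), grouped by gene list with the number tested in brackets and ordered by the list's median (black tick). The cell cycle list lies furthest to the left with a median of -1.06, erythroid and adipocyte lists furthest to the right at 1.22 each, and diamonds mark the called members.

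Several genes with large differences have little known about them. Gm13453, at 40127504 to 40127860 on the minus strand of chromosome 2, is annotated as a processed pseudogene. It read 36, 55, 26, 22 and 28 in controls and 204, 164, 158, 170 and 180 in D489V muscle. The groups were far apart, and the gene rose by 2.42 (SE 0.224, adjusted p = 0.00168). Its 357 bases match the transcript of Atp6v1g1, a subunit gene of the lysosomal proton pump, at 99.4% identity, so reads of the 2 genes are hard to assign. Atp6v1g1 itself gave 4207 to 6804 in controls and 6027 to 9163 in D489V muscle (log2 change 0.46, adjusted p = 0.353). Gm48584, a long intergenic noncoding RNA on chromosome 12 (15976264 to 15980488, minus strand), read 3, 4, 6, 5 and 5 against 25, 28, 22, 15 and 35 (log2 change 2.19, SE 0.312, adjusted p = 0.0408), a rise from values near the lower limit of the table.

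Among genes with a mean of 50 or more and groups that did not overlap, 5 further genes outside the lists were among the 10 with the greatest positive log2 changes. Abhd1, counted as a processed transcript, read 72, 56, 50, 68 and 224 in controls and 259, 264, 233, 234 and 257 in D489V muscle (log2 change 1.64, adjusted p = 0.0922). Control replicate 5 nearly reached the D489V values there. Togaram2, a gene of a cilium protein, read 93, 76, 133, 103 and 228 against 376, 413, 276, 331 and 308 (log2 change 1.52, adjusted p = 0.0546). Depp1, a FoxO target gene involved in autophagy, read 275, 254, 612, 345 and 221 against 1190, 775, 1002, 665 and 860 (log2 change 1.47, adjusted p = 0.0579). Inmt, a methyltransferase gene, gave 62 to 182 and 188 to 603 (log2 change 1.44, adjusted p = 0.167). Gm17971 gave 21 to 42 and 59 to 128 (log2 change 1.53, adjusted p = 0.0506). It is a processed pseudogene inside Coq10b that is 90.7% identical to another pseudogene over 729 bases, so its reads too may be shared. Abhd1, Togaram2, Depp1 and Mt2 each overlap a gene on the other strand, and whether the counting used strand is not given in the sources used here.

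A pair of antisense RNAs was among the 10 greatest negative changes. Foxo6os, read from the strand opposite to Foxo6 and close to it, gave 381, 367, 746, 800 and 710 in controls and 202, 199, 305, 310 and 319 in D489V muscle (log2 change -1.12, adjusted p = 0.131). Foxo6 itself, a forkhead factor gene, gave 365 to 735 and 192 to 406 (log2 change -0.86, adjusted p = 0.243). Gm12199, antisense within the procollagen protease gene Adamts2, gave 123, 119, 114, 187 and 103 against 54, 56, 63, 69 and 52 (log2 change -1.10, adjusted p = 0.0506). Foxo6os and Gm12199 did not overlap between groups, and Foxo6 did.

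The knockout libraries were compared with the same 5 controls, so the values are given side by side. Pdgfrb read 1475, 1628, 1138, 1339 and 958 in muscle labelled knockout, a log2 change of -0.45 from control (adjusted p = 0.294) beside -0.96 in D489V muscle. The direct test put D489V muscle below knockout muscle by -0.51 (SE 0.14, adjusted p = 0.0258). That call was lost without knockout replicate 1, without D489V replicate 1 or without D489V replicate 2, and with the replicate number in the fit, at adjusted p-values of 0.0544 to 0.0687. Knockout replicate 3, labelled male, had 3165 counts of Xist, the RNA of the inactive X chromosome, against 0 to 101 in the 10 libraries of the main comparison, and low Y-linked Ddx3y (367 against 1437 to 2676). Without it the log2 difference in Pdgfrb was -0.56 (adjusted p = 0.0321).

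In knockout against control, 1 of 15234 genes was called (0.00656%). D489V and knockout muscle differed in 3181 of 15299 genes (20.8%), 10.3% higher and 10.5% lower in D489V, so a call in that comparison is common. Apold1 read 51, 119, 140, 85 and 65 in knockout muscle, below every control, and was 2.86 higher in D489V than in knockout on the log2 scale (SE 0.26, adjusted p = 0.000255). Ankrd1 read 449, 349, 384, 147 and 152, split between libraries, and was 1.03 higher in D489V (adjusted p = 0.0295). Ccna2, Mki67 and Ckap2 did not pass the test between the mutants, with differences of -0.81 (adjusted p = 0.113), -0.78 (adjusted p = 0.189) and -0.85 (adjusted p = 0.0653). Their knockout means of 63.2, 172 and 37.4 lay between those of controls and D489V muscle.

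Of 26 immediate early genes tested between the mutants, 21 were called higher and 1 lower in D489V muscle, against 10.3% and 10.5% of all genes. The same D489V libraries had put all 26 above control, so a share above that of all genes is partly built in. The other 4 were not called (Atf3, Nr4a1, Ier5 and Arc). The lower gene was the nuclear receptor gene Nr4a3, at 180 to 897 in knockout and 96 to 206 in D489V muscle (log2 difference -1.64, adjusted p = 0.0226, past the threshold in 17 of 20 alternative fits). Fos read 523, 695, 301, 435 and 529 in knockout muscle and was 1.79 higher in D489V (adjusted p = 0.00155). Egr1 read 580, 718, 272, 423 and 423 and was 1.65 higher in D489V (adjusted p = 0.00307). Junb, Klf2, Klf4, Klf6 and Dusp1 were higher in D489V than in knockout by 1.31, 1.50, 1.04, 0.72 and 0.80, with adjusted p-values from 0.00053 to 0.004. Ccn1 showed the tightest separation, with 639 to 842 in knockout and 2302 to 3130 in D489V muscle (log2 difference 1.79, adjusted p = 4.98e-06), and Amotl2 and Errfi1 were higher by 1.05 and 0.96. The globin genes Hba-a1, Hba-a2, Hbb-bs and Hbb-bt were 1.67, 1.72, 1.49 and 1.57 higher in D489V than in knockout. Ccn1, Amotl2, Errfi1 and the globin genes had been picked by small p-values of the same D489V libraries against control.

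For some called or large changes, the difference between the mutants did not pass the test. Gm13453 read 33, 141, 164, 112 and 227 in knockout muscle and differed between mutants by 0.60 (adjusted p = 0.284). Togaram2 read 433, 414, 265, 282 and 288, and the difference between mutants was 0.04 (adjusted p = 0.896). The difference was likewise not past the threshold for Gadd45gip1 (-0.27, adjusted p = 0.151) and Mymk (-0.46, adjusted p = 0.44). A p above the threshold does not show that the mutants have equal levels of these genes.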

How the data were processed

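RNA sequencing of poly(A) RNA covered 5 libraries in each group. Values are given as a score: the deposited tables, by their names, hold normalized counts, which the authors rounded to whole numbers. The submitters' processing notes name Trim Galore 0.6.0, cutadapt, FastQC, STAR 2.7.0e, DESeq2 1.26.0 and GRCm38, without their roles, and strand use in counting is not given in the sources used here. Samples were grouped by the labels, and p-values measure the spread between these libraries. The 5 control columns were identical in the 2 tables. All 55536 gene IDs matched GENCODE M21, which replaced 27 names that had become dates. Whole reads could not be recovered from the rounded values, so the test was limma 3.58.1 in R 4.3.3 (lmFit, then eBayes with a mean-variance trend; two-sided tests) applied to log2(value + 1), which understates changes of low genes, with Benjamini-Hochberg adjustment over all genes tested and calls under 0.05. The same fit compared knockout with control and D489V with knockout.

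On simulated data with the real spread, 62 of 97 tested genes changed by 1 on the log2 scale were recovered, 89 of 96 changed by 2, and 12 unchanged genes were called among 15103. The simulation changed 100 genes of each size and drew genes independently, unlike the real fit with its 9 calls. Its shares check the code and are not the power of the real comparison. Genes were named by a rule: the PDGF family, every called gene, the 10 greatest rises and falls among genes with a mean of 50 or more and groups that did not overlap, and genes of each list by smallest p. Not all genes that this last part picks are named, a few are not reported here, and the highest markers of each cell type are given as list sums. Pcna, Mcm2, Mcm5, Aurka, Ube2c, Ccnb2, Cdc20, Pttg1, Kif11, Kif2c, Ckap2l, Nr4a1, Nr4a3, Atf3, Ier5, Arc, Junb, Fos, Egr1, Myog, Csf1r, Arsi, Atp6v1g1, Foxo6, Exosc9, Cdk1, Slc4a1, Bpgm, Amd1 and Odc1 were named outside the rule after their values were seen. Members and lists were chosen with earlier results of these data known. Promoter sequences are from RefSeq (GRCm38.p6; 4 of the 9 called genes had an entry), and near copies were found with BLAST 2.17.0. Alternatives covered the pseudocount (0.5 and 5), filters on low values, rescaling, the variance model, sample weights, the replicate number in the fit, and each library left out.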

Additional observations from a re-analysis of the deposited data

Results flagged for a closer look

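Single libraries lay far from the other 4 of their group in 6 of 88 groups of values examined, where chance gives about 1 in 20, or 4.4. Ankrd1 was low in control replicate 1, at 262 against 334 to 358. Kif20a was low in D489V replicate 2, at 12 against 34 to 48. Apln was high in control replicate 4, at 745 against 259 to 306, and Abhd1 in control replicate 5, at 224 against 50 to 72. In D489V replicate 3 the summed slow fibre list reached 243877 and the summed Schwann cell list 53206, each far above the other 4 D489V libraries.

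Of the 31 PDGF family genes, called genes and genes with large non-overlapping changes, 14 differed between D489V and knockout muscle in the direct test (limma, adjusted p under 0.05), beside 20.8% of all genes. Most of the 31 were picked because the same D489V libraries lay far from control. A higher share than that of all genes is thus built in and shows nothing further. Higher in D489V muscle were Pdgfb by 0.46, Apold1 by 2.86, Ankrd1 by 1.03, Gm48584 by 2.19, Hba-a1 by 1.67, Alas2 by 1.67, Inmt by 1.24, Depp1 by 1.48, Gm17971 by 1.73 and Abhd1 by 2.00 on the log2 scale. Lower in D489V muscle, as log2 differences, were Pdgfrb at -0.51, Top2a at -1.45, Foxo6os at -1.31 and Gm12199 at -1.51.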

How the results depend on the processing

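The number of genes called, 9, came from adjusted p-values close to the threshold and moved with most settings. It was 19 with a pseudocount of 5, 4 with a mean value of 50 or more, 23 after upper-quartile rescaling, 16 after quantile normalization, 21 with robust variance estimates and 86 with array weights, and 2 to 28 with single libraries left out. It stayed within 1.5 times of 9 with a pseudocount of 0.5 (9), without the filter (13) and without the variance trend (9). Pdgfrb kept its direction and its call in all 20 alternatives, with log2 changes from -1.02 to -0.92. None of the 9 called genes reversed, but 69 of their 178 alternative values lost the call. Of 1555 alternative values of the other named genes 72 passed the threshold and 22 changed sign. Signs changed for genes near 0: Pdgfa (-0.05 to 0.18 with single libraries left out), Pdgfd (-0.01 with array weights, -0.06 to 0.12 with libraries left out), Pdgfrl (-0.18 to 0.14), Bpgm (-0.17 to 0.05), Aurka (-0.07 to 0.16) and Ube2c (-0.17 to 0.27), and between the mutants Pdgfc (-0.22 to 0.04) and Togaram2 (-0.04 to 0.13). Why these values shift was not tested.

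The replicate numbers are shared between groups, and the labels do not say whether they pair the libraries. Same-numbered libraries correlated at 0.39, 0.20, -0.40, 0.13 and 0.03, and 4 of 10 libraries correlated best with their own number. Whether the libraries are paired was not tested. With the replicate block 7 genes were called, 2 of them among the 9, and the Pdgfrb log2 change was -0.96. Counting noise limits the low genes, such as Gm48584 and Ect2, and the depth behind each value before scaling is not given in the tables.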

Other observations

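Polyamine genes varied more among controls than between groups. Amd1, the enzyme that supplies decarboxylated S-adenosylmethionine for polyamine synthesis, read 2463, 3385, 7966, 18323 and 21161 in controls, 2360, 3478, 2169, 5470 and 3699 in D489V muscle and 17900, 9014, 5920, 19101 and 21590 in knockout muscle. The log2 change in D489V against control was -1.23 (limma, adjusted p = 0.52). Control replicates 1 and 2 thus lay in the D489V range and control replicates 4 and 5 in the knockout range. Odc1, the other entry enzyme of the pathway, had the same 2 high controls, with 1286, 1609, 1829, 3705 and 3268 in controls and 1165 to 1878 in D489V muscle (log2 change -0.53, adjusted p = 0.59).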
